A study of Homo sapiens with 2 samples.

Results

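The genes described here are 39 genes of cholesterol and fatty acid synthesis, their regulators and the genes that export cholesterol, out of 60671 genes listed for C4-2B cells. They were taken by symbol from a list drawn up with earlier results of these data known, so that their counts of calls describe these genes and are not independent evidence, and all 39 were found. They comprise 5 regulators of the SREBP transcription factors, 18 enzymes of sterol synthesis, 2 sterol transport genes, 9 enzymes of fatty acid synthesis and 5 genes of cholesterol efflux and the LXR receptors.

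C4-2B is a human castration-resistant prostate cancer (CRPC) cell line, derived from LNCaP cells. The cells were kept in medium with 10% fetal bovine serum and received either vehicle or 1 µM (R)-9b overnight, where (R)-9b is a small-molecule inhibitor of the tyrosine kinase ACK1 (gene TNK2). The sample labels place the dose in a protocol shared by both libraries and separate the libraries by their treatment entry, and the genotype entry says only that a cell line was used. Each condition had a single library of poly-A-selected RNA (n = 1), so no spread between cultures was measured and no test of the conditions was possible. The labels call the cells breast cancer. Of 7 prostate markers, all were detected, with KLK3 at 146597 counts in vehicle and 297728 in (R)-9b, whereas of 7 breast markers SCGB2A2 and ANKRD30A were at 0, ESR1 had 2 counts in each library and PGR had 10 and 2 counts. The other breast markers were detected at low counts, PIP at 124 in vehicle and 595 in (R)-9b, TFF1 at 41 and 73, and SCGB1D2 at 34 and 8. A count of 0 allows up to 3 counts.

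Cells make cholesterol from acetyl-CoA through mevalonate, farnesyl diphosphate, squalene and lanosterol, and make fatty acids by carboxylating acetyl-CoA to malonyl-CoA, which fatty acid synthase joins into palmitate for later elongation and desaturation. SREBP-2 (SREBF2) and SREBP-1 (SREBF1) switch on these genes after SCAP carries the precursor proteins from the endoplasmic reticulum to the Golgi. INSIG proteins hold SCAP back when sterols are plentiful. The LXR receptors respond to oxidised sterols by raising the efflux pumps ABCA1 and ABCG1, and androgen-driven prostate tumour cells are known for high expression of lipid synthesis enzymes.

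The SREBP proteins bind a sterol regulatory element (SRE) and act together with NF-Y, which binds CCAAT, and with SP1, which binds GC boxes. Promoters of RefSeq (GRCh38.p14) were found for 34 of the 39 genes. FDFT1, SQLE, ACAT2, FASN and ABCG1 had no entry. The 250 bases before the RefSeq start of each gene were searched on both strands for an SRE core (TCACNCCAC), CCAAT and GGGCGG. None of these motifs holds another. By GENCODE 29, the window lay wholly inside the gene itself for ACLY, ACSS2, CYP51A1, DHCR7, EBP, ELOVL6 and FADS1. It also did for FADS2, MVK, NR1H2, PMVK, SC5D and SCAP, and was all exon for EBP, PMVK and SC5D. The IDI1 window (chr10:1056705-1056954) lay apart from the annotated gene (chr10:1039152-1049170). The promoters of the gene of SREBP-2 and of 4 enzymes are shown, because these enzymes were among those with higher counts in (R)-9b and the promoters differ in these letters. Each is written 5′ to 3′ on the strand of its gene, limited to the longest stretch outside the exons of that gene in GENCODE 29, with capitals marking the SRE core and CCAAT or its reverse complement.
SREBF2: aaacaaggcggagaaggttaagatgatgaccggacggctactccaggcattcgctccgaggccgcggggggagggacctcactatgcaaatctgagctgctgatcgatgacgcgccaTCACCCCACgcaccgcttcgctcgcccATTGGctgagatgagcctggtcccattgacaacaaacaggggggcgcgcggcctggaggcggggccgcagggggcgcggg
HMGCS1: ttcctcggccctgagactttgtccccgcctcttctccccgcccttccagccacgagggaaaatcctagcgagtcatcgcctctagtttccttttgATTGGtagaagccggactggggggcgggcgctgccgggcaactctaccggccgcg
LSS: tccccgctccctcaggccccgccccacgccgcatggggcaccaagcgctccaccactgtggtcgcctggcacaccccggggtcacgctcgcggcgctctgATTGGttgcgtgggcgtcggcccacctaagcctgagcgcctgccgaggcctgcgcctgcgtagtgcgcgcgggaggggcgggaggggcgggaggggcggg
MSMO1: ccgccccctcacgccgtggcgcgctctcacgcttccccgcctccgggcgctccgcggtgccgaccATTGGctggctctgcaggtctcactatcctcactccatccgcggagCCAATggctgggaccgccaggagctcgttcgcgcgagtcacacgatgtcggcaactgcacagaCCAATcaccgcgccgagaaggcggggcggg
ELOVL6: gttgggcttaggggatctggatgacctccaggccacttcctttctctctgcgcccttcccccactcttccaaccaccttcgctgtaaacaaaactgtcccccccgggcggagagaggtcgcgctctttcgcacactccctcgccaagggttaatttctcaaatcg

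The SREBF2 stretch lies at chr22:41832855-41833078 on the plus strand, and the whole of it is also exon of the antisense RNA SREBF2-AS1. It held the only SRE core among the 34 promoters, 133 bases before the start, followed by a CCAAT on the opposite strand 106 bases before the start. The other stretches lie at chr5:43313513-43313662 (HMGCS1, minus strand), chr21:46228825-46229024 (LSS, minus strand), chr4:165327419-165327622 (MSMO1, plus strand) and chr4:110198677-110198841 (ELOVL6, minus strand). ELOVL6 is the exception among these, since its 250 bases fall inside the annotated gene, 85 of them in exon, and the stretch shown is intronic. MSMO1 had 4 CCAAT matches and HMGCS1 had 2 within the 250 bases searched, of which 3 and 1 are in the letters shown. ELOVL6 had none. Across sterol enzymes, CCAAT was in 12 of 15 promoters (80.0%), against 4 of 8 promoters of fatty acid enzymes, 1 of 4 of the efflux and LXR genes and 33.0% of 27305 promoters of all genes. The GC box was in 29 of the 34 promoters (85.3%), against 42.3% of all promoters and 56.0% of the 15842 promoters of protein-coding genes. The SRE core was in 0.875% of all promoters. These matches describe letters in a short window before RefSeq starts, which for some genes lies inside the annotated gene. They are not bound sites, and no binding was measured here. For the SRE, only the exact core was searched, so a promoter without a match can still hold an SRE with other letters.

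All values below are counts in 1 library of each condition, and ratios are (R)-9b to vehicle after TMM scaling. Brackets hold exact (Clopper-Pearson) 95% intervals of the log2 ratio, which cover counting error only and are too narrow where both mates of a read pair were counted. A gene was called higher or lower when its whole interval lay beyond 1.5-fold. Of the 39 genes, 8 were called higher, whereas 8.71% of the 23446 genes compared were. Lower calls were made for 3 of the 39, a share close to the 7.74% of all genes compared. The interval lay above 0 for 25 of the 39, below 0 for 11 and included 0 for 3, and the median log2 ratio of the 39 was 0.31, beside a median of 0.00 and quartiles of -0.39 and 0.44 over all genes compared. Among 9590 protein-coding genes with at least 1000 counts, where the counts are nearer to those of most of these genes, the median was -0.03 and the quartiles were -0.29 and 0.25. By call, 4 of 18 sterol enzymes and 4 of 9 fatty acid enzymes were higher and 0 lower. Of 5 efflux and LXR genes, 2 were lower and 0 higher, and ABCA1 among them rests on 64 and 13 counts. Intervals below 0 were found for 3 of the sterol enzymes and 1 of the fatty acid enzymes. The difference between these groups was not tested.

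**Figure D1:**
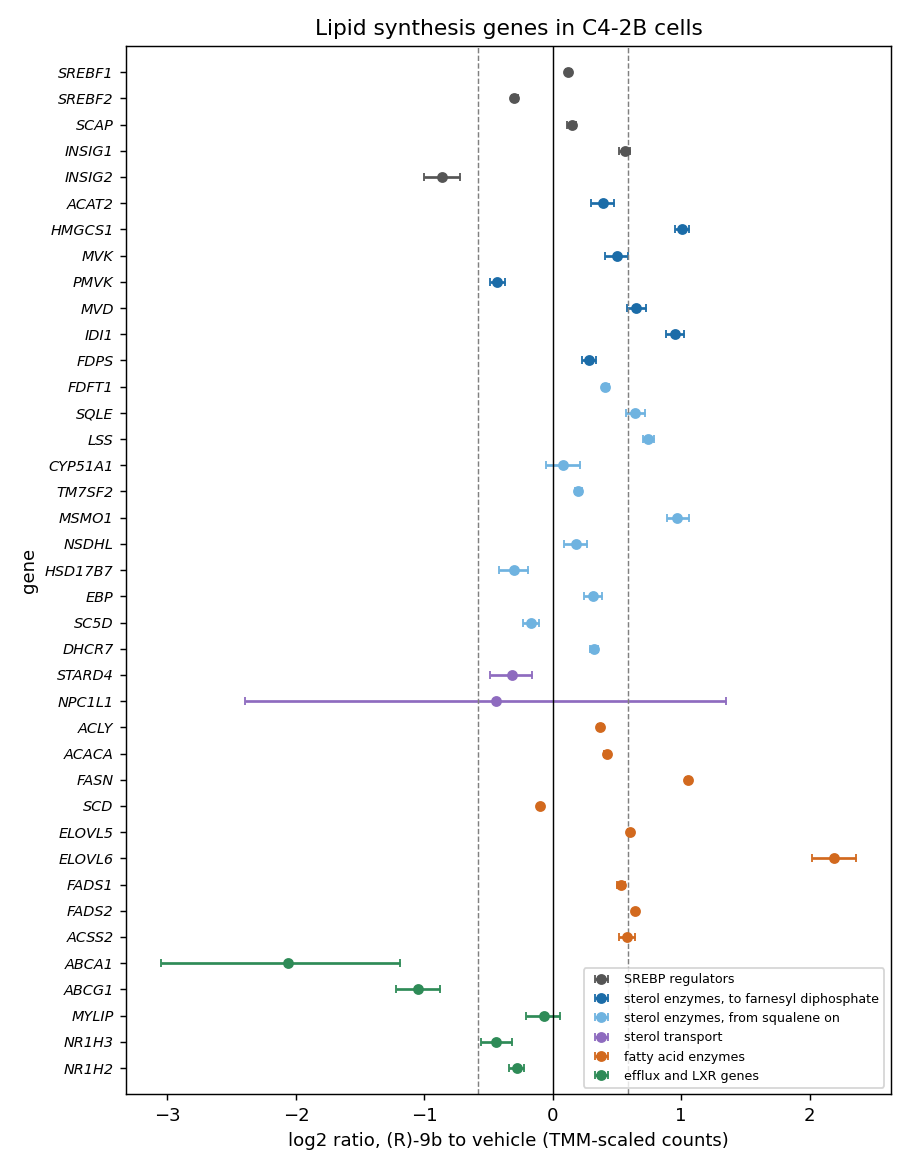
Log2 ratio of (R)-9b to vehicle (x axis, TMM-scaled counts) for the 39 genes in pathway order (y axis), coloured by group. Points are ratios from 1 library per condition, bars are exact 95% intervals for counting error, and dashed lines mark 1.5-fold. ELOVL6 is farthest to the right at 2.19 and ABCA1 farthest to the left at -2.06, and 4 sterol enzymes and 4 fatty acid enzymes lie wholly to the right of the dashed line.

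**Figure D2:**
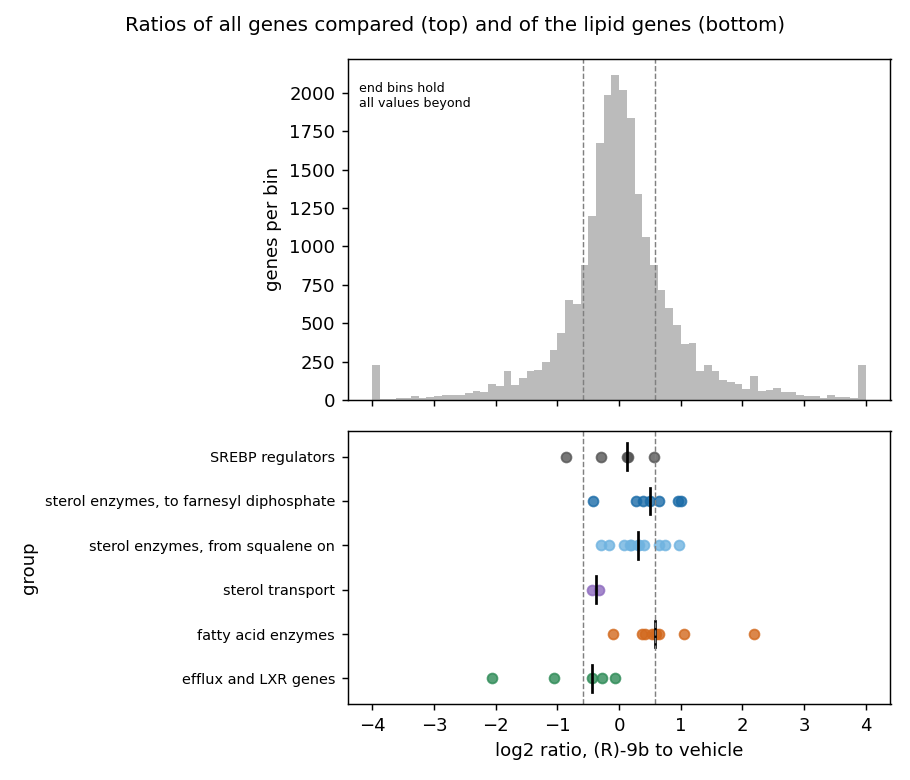
The top panel is a histogram of log2 ratios, (R)-9b to vehicle, of the 23446 genes compared, in genes per bin, and the bottom panel shows the ratio of each lipid gene by group, with a black bar at the group median. Dashed lines mark 1.5-fold. The fatty acid enzymes have a median of 0.58, the sterol enzymes to farnesyl diphosphate 0.50 and those from squalene on 0.31. These lie to the right of the peak of all genes, while the efflux and LXR genes have a median of -0.44.

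The regulators did not move as a group. SREBF1 (chr17:17810399-17837002), the gene of SREBP-1, had 55112 counts in vehicle and 50768 in (R)-9b, a log2 ratio of 0.12 [0.10, 0.14]. SREBF2 (chr22:41833079-41907308), the gene of SREBP-2, had 27968 counts and 19327 counts, a log2 ratio of -0.30 [-0.32, -0.27] or 0.815-fold. The transcript level of neither factor was past 1.5-fold, and the genes of both factors differed in the sign of their ratio. SCAP, the escort of the precursors, had 14098 and 13247 counts, a log2 ratio of 0.15 [0.11, 0.18].

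The INSIG genes, whose proteins retain SCAP in the endoplasmic reticulum, differed in sign. INSIG1 (chr7:155297776-155310235) is itself a classical SREBP target and had 10420 counts in vehicle and 13008 in (R)-9b, 1.47-fold, with an interval of 0.52 to 0.60 that included 1.5-fold, and was not called. INSIG2 (chr2:118088452-118110997) had 1365 and 639 counts, 0.552-fold or a log2 ratio of -0.86 with an interval that ended at -0.72, and was the only regulator called. Per exon length, as CPM per kb (RPKM), INSIG1 was at 42.9 RPKM and INSIG2 at 5.19 RPKM in vehicle, and at 63.1 and 2.87 RPKM in (R)-9b.

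Of the 7 enzymes from acetyl-CoA to farnesyl diphosphate, 2 were called higher and 0 lower, beside 8.71% and 7.74% of all genes compared. Their median log2 ratio was 0.50. HMGCS1 (chr5:43289395-43313512), which makes HMG-CoA, had 4053 counts in vehicle and 6912 in (R)-9b, 2.01-fold with a log2 ratio of 1.01 [0.95, 1.06]. IDI1 (chr10:1039152-1049170), the isomerase that forms dimethylallyl diphosphate, had 2756 and 4517 counts, 1.93-fold with a log2 ratio of 0.95 [0.88, 1.02]. Both were well clear of 1.5-fold in the same direction.

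The remaining enzymes of this stretch were not called. MVD, the decarboxylase, had 2559 and 3414 counts, 1.57-fold, and its interval of 0.58 to 0.73 began just inside 1.5-fold. MVK, mevalonate kinase, had 1888 and 2270 counts and a log2 ratio of 0.50 [0.41, 0.59]. FDPS, which makes farnesyl diphosphate, had 4977 and 5134 counts and a log2 ratio of 0.28 [0.23, 0.34]. PMVK, the kinase between MVK and MVD, was the exception in direction, with 5380 counts in vehicle and 3389 in (R)-9b, 0.743-fold and -0.43 [-0.49, -0.37] on the log2 scale. ACAT2, a thiolase that joins acetyl-CoA units, had 2017 and 2238 counts and a log2 ratio of 0.39 [0.30, 0.48], but 52.3% of its exon bases overlap genes on the opposite strand (SOD2, SOD2-OT1 and TCP1), and the strand setting of the counting is not given in the sources used here, so that its value is uncertain.

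Of the 11 enzymes from squalene synthesis on, 2 were called higher and 0 lower, beside 8.71% and 7.74% of all genes compared. Their median log2 ratio was 0.31. LSS (chr21:46188141-46228824), lanosterol synthase, had 7311 counts in vehicle and 10381 in (R)-9b, 1.67-fold or 0.74 [0.70, 0.79] on the log2 scale. MSMO1 (chr4:165327623-165343160), the C4 methylsterol oxidase, had 2016 and 3360 counts, 1.97-fold or 0.97 [0.89, 1.06]. In the deposited estimates per transcript its ratio was of the opposite sign, at -0.46, from 119 and 73 estimated counts that amount to 5.90% and 2.17% of its gene counts. Over all genes, estimated counts amounted to 33.5% of gene counts in vehicle and 33.3% in (R)-9b.

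SQLE (chr8:124998497-125022283), squalene epoxidase, had 2631 counts in vehicle and 3485 in (R)-9b, 1.56-fold, with an interval of 0.57 to 0.72 that included 1.5-fold. FDFT1 (chr8:11795573-11839309), squalene synthase, had 22526 and 25469 counts and a log2 ratio of 0.41 [0.39, 0.44]. DHCR7, which reduces 7-dehydrocholesterol, had 15180 and 16092 counts and a log2 ratio of 0.32 [0.29, 0.35]. For these 3 enzymes the interval lay above 0, and none was called. EBP, the sterol isomerase, had 2872 and 3020 counts with 0.31 [0.24, 0.38], TM7SF2, a sterol reductase, had 16227 and 15825 counts with 0.20, and NSDHL, the sterol C4 decarboxylase, had 2156 and 2074 counts with 0.18 [0.09, 0.27]. The same held for these 3.

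Lower values were found for 2 later enzymes. HSD17B7, a 3-ketosterol reductase, had 1511 and 1039 counts and a log2 ratio of -0.30 [-0.42, -0.19], and SC5D, which desaturates lathosterol, had 5083 and 3830 counts and a log2 ratio of -0.17 [-0.23, -0.11]. CYP51A1, lanosterol demethylase, had 1044 and 938 counts, and its interval of -0.05 to 0.21 included 0. Its gene shares 83.2% of its exon bases with AC000120.2 and AC000120.3 on the same strand and with CYP51A1-AS1, and its value is uncertain. Pseudogene copies of CYP51A1, FDPS, HSD17B7, IDI1 and SCD are also listed, and these genes are uncertain to the extent that reads of near-identical copies were not counted as unique.

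Over the 18 sterol enzymes, 4 were called higher (HMGCS1, IDI1, LSS and MSMO1) and 0 lower, beside 8.71% and 7.74% of all genes compared. Their log2 ratios ran from -0.43 to 1.01, with a median of 0.35. The interval lay above 0 for 14 of them, below 0 for 3 and included 0 for 1. Their summed CPM was 1530 in vehicle and 2010 in (R)-9b, 1.31-fold. The sterol transport genes were not called. STARD4, which carries cholesterol between membranes, had 750 counts in vehicle and 508 in (R)-9b, a log2 ratio of -0.32 [-0.49, -0.16]. NPC1L1, the intestinal cholesterol uptake transporter, had 8 and 5 counts, and a difference was not detectable at this depth.

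**Figure D3:**
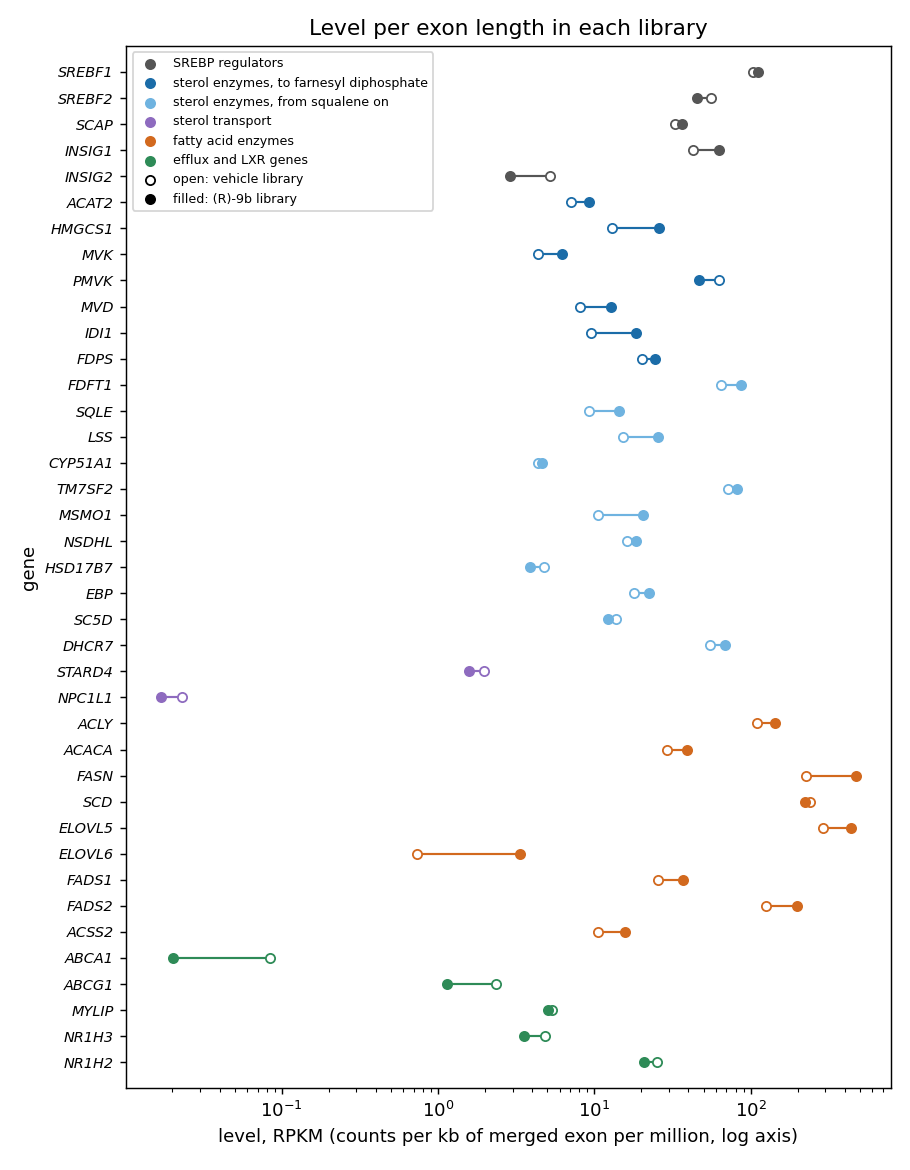
Level of each gene in both libraries as RPKM, TMM-scaled CPM per kb of merged exon (x axis, log axis), with open points for vehicle and filled points for (R)-9b. Enzymes of fatty acid synthesis hold the highest levels, with ELOVL5 at 290 and 439 RPKM and FASN at 227 and 470 RPKM, and ABCA1 and NPC1L1 lie far below the other genes.

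Of the 9 fatty acid enzymes, 4 were called higher and 0 lower, beside 8.71% and 7.74% of all genes compared. Their median log2 ratio was 0.58. With scaling by total counts, 2 of the 9 were called higher (FASN and ELOVL6). The interval lay above 0 for 8 of the 9. FASN (chr17:82078333-82098332), fatty acid synthase, had 141711 counts in vehicle and 248350 in (R)-9b, 2.07-fold or 1.05 [1.04, 1.06] on the log2 scale. By count it stood at place 29 among all genes in vehicle and at place 14 in (R)-9b. Its share of the counts of the 9 enzymes was 29.6% in vehicle and 39.4% in (R)-9b.

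ELOVL6 (chr4:110045846-110199199), which elongates palmitate to stearate, had the highest ratio of the 39 genes. It had 354 counts in vehicle and 1368 in (R)-9b, 4.56-fold or 2.19 [2.02, 2.36], and 96.3% of the genes compared had a lower ratio. Its level remained modest, at 0.729 RPKM and 3.32 RPKM. In the deposited estimates per transcript, both of its main transcripts were higher, ELOVL6-201 with 69.4 and 197.1 estimated counts and ELOVL6-202 with 50.6 and 300.0 estimated counts, so that ELOVL6-202 held 40.8% of the gene in vehicle and 59.5% in (R)-9b.

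The abundant enzymes of polyunsaturated fatty acids were called by a small margin. ELOVL5 (chr6:53267398-53349179), an elongase of these fatty acids, had 73580 counts in vehicle and 94521 in (R)-9b, 1.51-fold or 0.60 [0.59, 0.61], and FADS2 (chr11:61792980-61867354), the delta-6 desaturase, had 92518 and 122557 counts, 1.56-fold or 0.64 [0.63, 0.66]. Both calls were lost with scaling by total counts, and the call of ELOVL5 also with DESeq2 size factors and with halved counts. FADS1 (chr11:61799625-61829318), the delta-5 desaturase that overlaps FADS2 on the opposite strand, had 17372 and 21269 counts and a log2 ratio of 0.53 [0.50, 0.56].

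The enzymes that supply and start fatty acid synthesis were not called, with intervals above 0. ACSS2, which makes acetyl-CoA from acetate, had 3798 and 4808 counts and a log2 ratio of 0.58 [0.52, 0.64]. ACACA, acetyl-CoA carboxylase, had 25221 and 28610 counts with 0.42 [0.40, 0.44], and ACLY, which makes acetyl-CoA from citrate, had 38089 and 41748 counts with 0.37 [0.35, 0.39]. SCD, the stearoyl-CoA desaturase, was the exception. It had 85573 counts in vehicle and 67876 in (R)-9b, a log2 ratio of -0.10 [-0.11, -0.08], and was the only fatty acid enzyme with an interval below 0.

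The summed CPM of the 9 fatty acid enzymes was 7180 in vehicle and 11200 in (R)-9b, 1.56-fold. Without FASN it was 5050 and 6780, 1.34-fold, close to the 1.31-fold of the sterol enzymes. By gene, the median of the fatty acid enzymes (0.58) was also above that of the sterol enzymes (0.35), and the difference between both branches was not tested. The sum over all 39 genes was 10500 CPM for vehicle and 15000 CPM for (R)-9b, and 8390 and 10600 CPM without FASN.

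**Figure D4:**
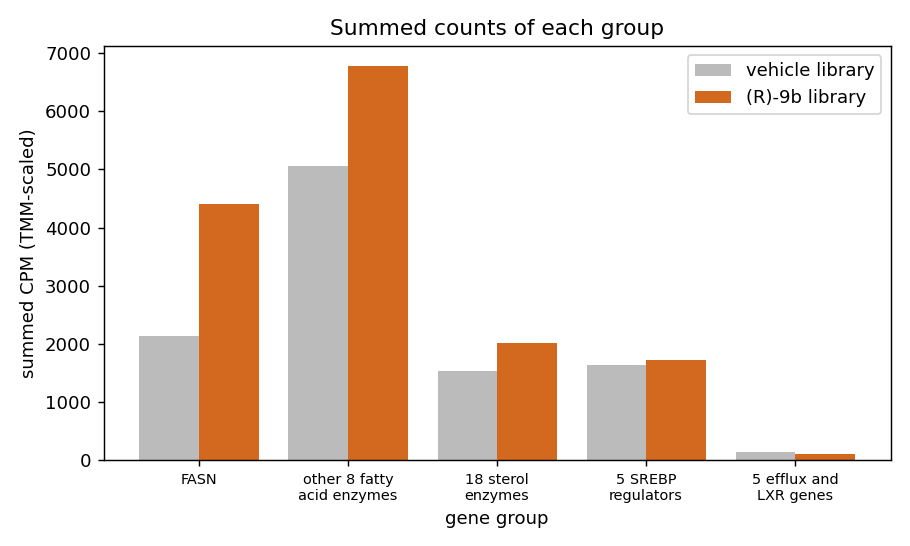
Summed CPM (y axis, TMM-scaled, from 0) of FASN, the other 8 fatty acid enzymes, the 18 sterol enzymes, the 5 SREBP regulators and the 5 efflux and LXR genes, in the vehicle library (grey) and the (R)-9b library (orange). FASN went from 2130 to 4400 CPM, the regulators from 1640 to 1720 CPM and the efflux and LXR genes from 148 to 117 CPM.

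The efflux and LXR genes lay on the other side. Of 5 genes, 2 were called lower and 0 higher, beside 7.74% and 8.71% of all genes compared. The median log2 ratio of the 5 was -0.44. ABCA1 (chr9:104781002-104928237), the pump that loads cholesterol onto apolipoproteins, had 64 counts in vehicle and 13 in (R)-9b, 0.240-fold or -2.06 [-3.05, -1.19]. Its level was very low in both libraries, at 0.0847 and 0.0203 RPKM. ABCG1 (chr21:42199689-42297244), which exports cholesterol to lipoproteins, had 962 and 394 counts, 0.483-fold or -1.05 [-1.22, -0.88], and rests on far more counts than ABCA1.

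The receptors were lower by less and were not called. NR1H3 (LXRα) had 1458 counts in vehicle and 909 in (R)-9b, a log2 ratio of -0.44 [-0.56, -0.32], and NR1H2 (LXRβ) had 6324 and 4417 counts with -0.28 [-0.34, -0.22]. MYLIP, an LXR target that marks lipoprotein receptors for degradation, had 1074 and 865 counts, and its interval of -0.21 to 0.06 included 0. The LXR targets of this group, ABCA1, ABCG1 and MYLIP, therefore did not move by the same amount.

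Other genes of these pathways, taken from lists that contain no member, give the setting. Among all 23446 genes compared, 8.71% were called higher and 7.74% lower. Among 9 genes that process or degrade SREBP, SCAP and INSIG proteins, 0 were called higher and 1 lower, with a median log2 ratio of -0.17. The lower gene was C12orf49, a factor needed for SREBP processing, with 5854 counts in vehicle and 2524 in (R)-9b, -0.98 [-1.04, -0.91]. In the branch that leads from farnesyl diphosphate to dolichol, ubiquinone and prenylated proteins, 0 of 14 genes were called in either direction, with a median of -0.08. PDSS1, of ubiquinone synthesis, was highest at 0.66 [0.52, 0.80] and NUS1, of dolichol synthesis, lowest at -0.59 [-0.65, -0.53]. The difference between this branch and the sterol enzymes was not tested.

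Among 17 genes mainly of sterol trafficking, storage and oxidation, 0 were called higher and 1 lower, with a median of -0.01. This list also holds a sterol reductase and a thiolase, and neither was called. The lower gene was VLDLR, a lipoprotein receptor, with 1632 and 845 counts and a log2 ratio of -0.71 [-0.83, -0.59]. Among 6 other genes of the LXR pathway, 0 were higher and 1 lower, with a median of -0.01. The lower gene was PLTP, the phospholipid transfer protein, with 56 and 12 counts and a log2 ratio of -1.98 [-3.02, -1.07]. Over all genes compared, 8.71% were called higher and 7.74% lower.

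Among 27 other genes of fatty acid and glyceride synthesis, 9 were called higher and 1 lower, with a median of 0.15. The shares over all genes compared were 8.71% higher and 7.74% lower. THRSP, a lipogenic nuclear protein, had 39 counts in vehicle and 283 in (R)-9b, 8.56-fold. ACSL5, an acyl-CoA synthetase, had 40 and 109 counts, 3.21-fold, and PNPLA3, a lipid droplet protein, had 96 and 171 counts, 2.10-fold. These 3 rest on few counts, while the other 6 higher genes had 630 to 33670 counts in vehicle and log2 ratios of 0.74 to 1.05. The lower gene was ACACB, the mitochondrial acetyl-CoA carboxylase, with 2256 and 1031 counts and a log2 ratio of -0.89 with an interval that ended at -0.78, opposite in sign to ACACA. Among 16 genes of fatty acid oxidation, 1 was called higher and 0 lower, with a median of 0.02, and the higher gene was ACADL at 0.76 [0.66, 0.86].

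Several other features also differed between both libraries. Mitochondrially encoded genes held 1.49% of counts in vehicle and 9.54% in (R)-9b, and all 12 genes of a list of the integrated stress and unfolded protein responses were lower in (R)-9b, from -4.37 to -0.62, with a summed CPM of 10800 and 2630. The 7 prostate markers, which include androgen targets, had a summed CPM of 4550 and 9020. Of these, 3 were called higher, against 8.71% of all genes compared. The 7 breast markers summed to 3.17 CPM in vehicle and more in (R)-9b, mostly from PIP, and the 11 immune and stromal markers to 29.2 and 44.7 CPM, mostly COL1A1 and VWF, with PTPRC at 0 in both. Whether any of these bears on the lipid genes was not tested, and with 1 library per condition treatment and library cannot be told apart.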

How the data were processed

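C4-2B cells were sequenced with 1 library for vehicle and 1 for (R)-9b. The authors deposited gene counts of uniquely aligned unambiguous reads, without normalization. The submitters' processing notes name hg38, STAR 2.5.1a and featureCounts 1.4.6-p5, and the paper's methods name another STAR version. The authors also deposited moderated log2 CPM per gene and estimated counts per transcript, and the notes name Salmon 0.8.2. Counts summed to 65207444 for vehicle and 57653965 for (R)-9b. Among genes with 1 to 20 counts, 72.2% and 70.3% of counts were even, as when both mates of a pair are counted, so intervals on these counts are too narrow and halved counts were an alternative.

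Repeated lines of a gene (200) were dropped, and a gene was compared when its counts in both libraries summed to 10 or more. TMM scaling used edgeR 4.0.16 under R 4.3.3, and intervals used Python 3.11.15 and scipy 1.17.1. Called genes had the whole 95% interval beyond 1.5-fold. RPKM used the merged exons of GENCODE 29. Estimated counts were rounded. Scripts were tested on simulated data. Figures used matplotlib 3.10.9.

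The genes and lists were chosen with earlier results of these data known. All 39 genes are reported, and of each other list at most the 3 highest and 3 lowest ratios could be named, beside markers. Alternatives were scaling by total counts, DESeq2 1.42.0 size factors, the upper quartile or TMM without mitochondrial genes, halved counts, moderated log2 CPM, estimated counts, minimum counts of 1 and 50, a 2-fold limit, and the point ratio. Estimated counts limited to genes with at least 20% of their gene counts were added after the data were seen. Columns of comparisons between groups were not used.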

Additional observations from a re-analysis of the deposited data

How the results depend on the processing

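No replicate was available, and no paired analysis was possible because each condition had 1 library. None of the 39 genes changed the sign of its ratio in any setting that used the gene counts. Of the 8 higher calls, 6 were made with scaling by total counts (without ELOVL5 and FADS2), 7 with DESeq2 size factors or halved counts (without ELOVL5), and 10 with upper-quartile scaling or the point ratio, which added MVD and SQLE. INSIG2, ABCA1 and ABCG1 were called lower in each of these. With a 2-fold limit, 2 genes were higher (FASN and ELOVL6) and 1 lower (ABCA1). The share of all genes called was computed only for TMM scaling with the whole interval beyond 1.5-fold, not for these alternatives. The median log2 ratio of the sterol enzymes was 0.29 with scaling by total counts and with moderated log2 CPM, and that of the fatty acid enzymes 0.61 with upper-quartile scaling. Scaling by total counts lowered every log2 ratio by 0.06 relative to TMM scaling. In the estimated transcript counts 4 of the 38 genes compared changed sign (MSMO1, FDFT1, SQLE and NR1H2), and each of these held under 20% of its gene counts there, as did 9 of the 39 genes. MSMO1 reversed to -0.46 and SQLE was called lower at -2.48 [-3.76, -1.40] from 53 and 8 estimated counts. NPC1L1, with 1 and 2 estimated counts, was not compared. The higher calls of MSMO1 and ELOVL5 were lost, as were the lower calls of INSIG2 at -0.78 [-1.01, -0.55] and ABCA1 at -2.34 [-4.74, -0.56], whose intervals were wider on fewer counts. With the 30 genes that held at least 20%, 1 was called lower (ABCG1) and the median of the efflux and LXR genes was -0.75, with fewer genes in the list. Depth limits NPC1L1 and, less so, ABCA1, and counting error is the only error the intervals hold.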
